A study of Homo sapiens with 6 samples.

Results

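Wide SUMO peaks called under Ara-C only were 300 bp or more from start to end and shared no base with any mock or DNR peak. They were selected on 2 measured values, width and overlap with the other lists, so their width and their absence from those lists are a description of the choice. Of 69861 Ara-C peaks outside the excluded regions, 2780 met the rule (exact Poisson interval 2678 to 2885), which is 3.98%. The Ara-C list held 72279 peaks in all and the 3 lists together 149899. A peak-dense part of chromosome 8q and the first and last 1 Mb of each chromosome were left out, which removed 159 peaks.

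The lists came from SUMO-2/3 ChIP-seq in HL-60, an established human acute myeloid leukaemia (AML) cell line. Cells received water (mock), 2 µM Ara-C or 1 µM daunorubicin (DNR) for 2 h, and SUMO-bound chromatin was then precipitated with 2 µg of antibody. The 3 biological replicates were sequenced as 1 pool, so each condition had 1 library and 1 peak list, and no value below has a replicate check. Intervals are 95% and cover counting error only.

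SUMO-2 and SUMO-3 are ubiquitin-related proteins that are attached to lysines of other proteins by an enzyme cascade that ends in E3 ligases, and are removed by SENP proteases. Many SUMO targets are transcription factors, co-regulators and chromatin proteins, among them the insulator protein CTCF. Ara-C is a nucleoside analogue that is incorporated into DNA and stalls replication, and DNR is an anthracycline that intercalates into DNA and poisons topoisomerase II.

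The sequences shown first are those of the 4 widest peaks that held the CTCF core consensus and touched no annotated UTR. Of the motifs searched, this one had the largest ratio between these peaks and their flanks. Each window is at most 200 bases of the peak, in hg19 (GRCh37), written on the plus strand, with the core in capitals. The core lay on the plus strand in the DOC2GP and ST7 windows and on the minus strand in the other two.
DOC2GP, chr11:67381715-67381914: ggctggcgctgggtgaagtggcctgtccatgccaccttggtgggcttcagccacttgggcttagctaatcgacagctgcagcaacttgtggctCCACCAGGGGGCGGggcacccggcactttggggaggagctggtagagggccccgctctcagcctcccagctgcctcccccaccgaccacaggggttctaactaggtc
upstream of ST7, chr7:116570567-116570766: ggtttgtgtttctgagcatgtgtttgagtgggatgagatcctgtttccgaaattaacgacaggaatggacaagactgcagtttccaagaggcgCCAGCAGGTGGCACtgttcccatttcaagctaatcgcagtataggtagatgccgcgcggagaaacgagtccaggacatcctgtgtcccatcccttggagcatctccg
PNPLA3 intron, chr22:44341842-44342041: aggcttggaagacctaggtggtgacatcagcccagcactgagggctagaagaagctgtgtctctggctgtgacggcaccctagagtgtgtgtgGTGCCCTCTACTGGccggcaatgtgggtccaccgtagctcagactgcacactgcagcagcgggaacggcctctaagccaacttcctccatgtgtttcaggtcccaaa
upstream of ETV3, chr1:157125901-157126100: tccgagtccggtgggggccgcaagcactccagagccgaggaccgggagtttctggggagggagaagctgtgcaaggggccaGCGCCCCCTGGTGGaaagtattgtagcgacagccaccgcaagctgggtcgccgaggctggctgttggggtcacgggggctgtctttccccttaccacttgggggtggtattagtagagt

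The DOC2GP peak (chr11:67381301-67382000, 700 bp) lay over a pseudogene, 7235 bp downstream of the start site of NDUFV1, a subunit of respiratory complex I. Pseudogene copies can take reads from a related gene, so its placement is uncertain. The ST7 peak (500 bp) was intergenic, at -22592 bp from the gene's start, negative being upstream, and 46800 bp from the nearest mock peak. The PNPLA3 peak (500 bp) was 9050 bp from mock and the ETV3 peak (450 bp) 1950 bp from mock. All 4 nearest mock peaks were 150 bp wide, the narrowest width that the authors' calling gave on its 50 bp grid.

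The next windows come from the 3 widest peaks that held another searched motif, no CTCF core and no annotated UTR. Capitals mark the C/EBP motif TTGCNNAA in the first and second windows and the SP/KLF motif GGGCGG, on either strand, in the third.
downstream of DDIT4, chr10:74036653-74036852: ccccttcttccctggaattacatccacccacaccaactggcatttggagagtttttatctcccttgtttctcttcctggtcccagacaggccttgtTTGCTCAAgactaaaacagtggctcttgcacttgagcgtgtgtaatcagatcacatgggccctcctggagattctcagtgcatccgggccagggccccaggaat
MALAT1, chr11:65274801-65275000: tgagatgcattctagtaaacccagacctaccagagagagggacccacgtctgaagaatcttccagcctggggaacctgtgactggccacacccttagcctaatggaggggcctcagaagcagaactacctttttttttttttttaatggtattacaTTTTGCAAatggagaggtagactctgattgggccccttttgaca
RPS7 intron, chr2:3623534-3623733: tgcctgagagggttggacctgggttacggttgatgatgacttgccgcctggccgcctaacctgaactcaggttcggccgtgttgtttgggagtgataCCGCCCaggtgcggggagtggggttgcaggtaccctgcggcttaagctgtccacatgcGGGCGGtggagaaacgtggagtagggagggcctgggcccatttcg

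The widths ran from 300 to 1000 bp, with a median of 300 bp and a mean of 344 bp. Peaks of 300 bp made up 1489 of the 2780, and 597 (21.5%) reached 400 bp. Together they covered 0.956 Mb. Just inside the width limit, the 300 bp peaks had 10.1% at promoters, a median GC content of 46.7% and a median of 10650 bp to a mock peak. Just outside it, the 4157 Ara-C-only peaks of 250 bp had 8.49%, 45.6% and 11300 bp. At the other edge of the rule, 48 peaks abutted a mock or DNR peak with 0 bp between them and 97 lay within 50 bp of one, while 62 wide Ara-C peaks were left out for sharing 50 bases or fewer.

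The widest peak, 1000 bp at chr22:31480701-31481700, covered an internal start site of SMTN, which encodes smoothelin, a cytoskeletal protein. Within 5 kb of its centre the mock list had 1 peak of 350 bp and the DNR list 1 of 200 bp, both upstream and neither touching it. The second widest (850 bp, chr10:74036201-74037050) lay 2947 bp downstream of the start of DDIT4, which encodes the stress-induced mTORC1 inhibitor REDD1. Within 2 kb of DDIT4 there were 6 Ara-C peaks covering 2050 bp, 2 mock peaks covering 750 bp and 0 DNR peaks. The DDIT4 locus thus carried SUMO peaks in mock cells too.

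The long noncoding RNA loci MALAT1 and NEAT1, whose nuclear RNAs associate with speckles and paraspeckles, each held a peak among the widest. MALAT1 had an 850 bp peak near its 3′ end, over the start of the antisense transcript TALAM1. Within 2 kb of MALAT1 the peaks numbered 8 under Ara-C (2800 bp), 2 in mock (750 bp) and 0 under DNR. NEAT1 had a 650 bp peak centred 15 bp from its start. Its locus held 11 Ara-C peaks (3400 bp), 5 mock peaks (850 bp) and 0 DNR peaks. The widest peak was 850 bp under Ara-C and 550 bp in mock at MALAT1, and 650 bp and 200 bp at NEAT1. These loci and DDIT4 were named for holding wide Ara-C-only peaks, so an excess of Ara-C bases there follows in part from the choice, and the counts are a description.

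**Figure D1:**
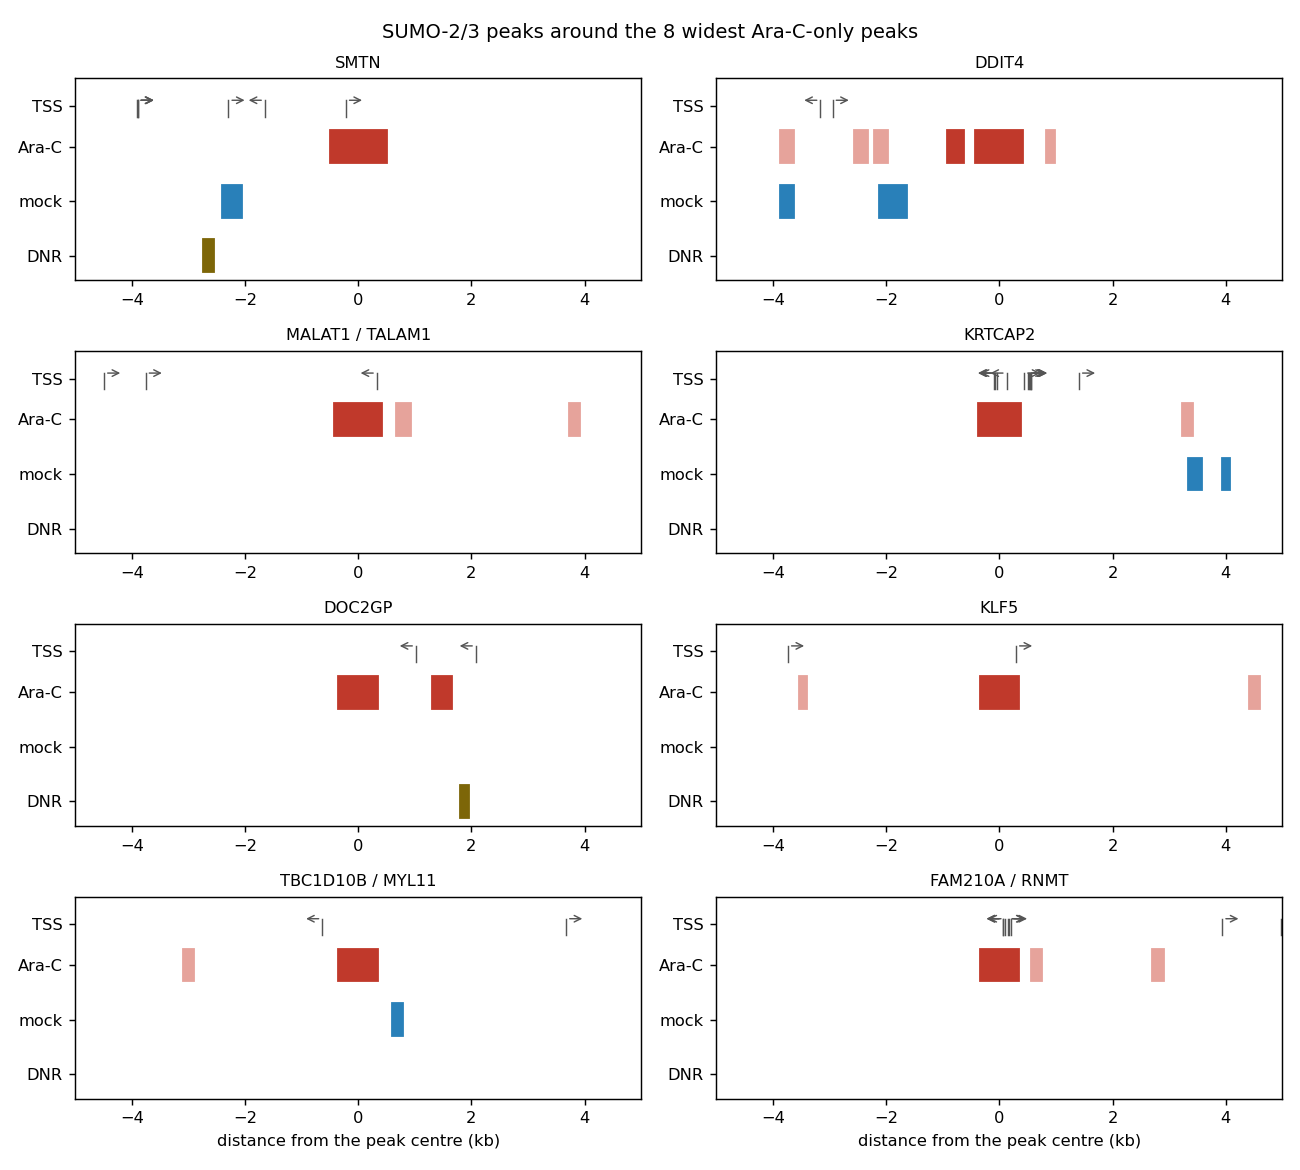
SUMO-2/3 peaks within 5 kb of the 8 widest Ara-C-only peaks. The x axis is the distance from the peak centre in kb, rows are the 3 lists, dark red marks wide Ara-C-only peaks, light red other Ara-C peaks, blue mock and brown DNR peaks, and arrows are annotated start sites. Mock peaks appear in 4 panels and DNR peaks in 2, and the FAM210A/RNMT peak covers start sites on both strands.

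Among the other widest peaks, 5 covered the start site of a coding gene. KRTCAP2, a subunit of the oligosaccharyltransferase, had a 750 bp peak. KLF5, a zinc finger transcription factor, had a 700 bp peak with 16600 bp to the nearest mock peak. A single 700 bp peak covered both FAM210A and RNMT, the mRNA cap methyltransferase, which are transcribed away from each other. MRPL24, of the mitochondrial ribosome, and CDC73, of the PAF1 elongation complex, had peaks of 650 bp, 8400 and 250 bp from mock. A 700 bp peak lay at -635 bp from the start of TBC1D10B, a Rab GTPase-activating protein, over the neighbouring MYL11.

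The remaining peaks of 650 bp lay in RPS7 (a ribosomal protein gene), in the noncoding MIR3681HG, in TAB2 (an adaptor of the kinase TAK1), near ZBTB5 and at IER2, an immediate-early gene. Next in width over a coding start site came FANCC, of the Fanconi anaemia core complex (600 bp), RPS19BP1 (600 bp), SMC3, a cohesin subunit (550 bp), and TARBP2, a Dicer partner (550 bp). The FANCC peak was 134700 bp from the nearest mock peak, and within 5 kb of its centre it was the 1 peak of any list. The SMC3 peak had 1 mock peak of 200 bp within 5 kb and 0 DNR peaks.

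By midpoint, 351 of the 2780 peaks (12.6%, 11.4 to 13.9) lay in a promoter, from 2 kb upstream of a coding transcription start site (TSS) to the TSS. That was 6.66 times the share of genomic bases in that class. Exons held 5.68% (2.18 times the genome), introns 40.0% and intergenic sequence 41.7%. Promoters and exons therefore held more of these peaks than their length, while most peaks lay in introns or between genes.

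The promoter share stood between those of the other peak sets. Of the 2400 wide Ara-C peaks that shared a base with a mock peak, 29.9% were at promoters, a difference of -17.2 points (-19.5 to -15.0). Of the 1500 wide mock-only peaks, 15.3% were (-2.64 points, -4.89 to -0.484). Both intervals lay below 0, and the difference from mock-only peaks was the smaller of the pair. Against 34672 Ara-C-only peaks of 150 bp (4.22%), the share was 8.41 points higher (7.20 to 9.71), and against 1017 wide DNR-only peaks (3.64%) it was 8.99 points higher (7.20 to 10.6).

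The difference from shared peaks was also present between peaks of like width. At 300 to 350 bp the promoter share was 11.4% against 28.2% (-16.8 points, -19.6 to -14.1), and at 400 bp or more 17.3% against 32.1% (-14.9 points, -18.9 to -10.6). At 400 bp or more the mock-only share was 17.5%, and the difference of -0.239 points (-5.70 to 4.80) included 0. Within the Ara-C-only peaks the promoter share was 10.1% at 300 bp, 14.0% at 350 bp, 13.3% at 400 bp, 17.7% at 450 bp and 26.6% (19.6 to 35.0) at 500 bp or more.

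Around the TSS the peaks were spread more evenly than the shared ones. Their midpoints lay within 1 kb of a coding TSS in 427 cases (15.4%), against 32.2% of shared peaks and 19.4% of mock-only peaks. The 250 bp just upstream of the TSS, with midpoints on the TSS itself included, held 5.00% of them and 16.8% of shared peaks (-11.8 points, -13.5 to -10.1). From 250 bp to 1 kb downstream the order against shared peaks turned, with 3.24% against 2.29% (0.946 points, 0.0420 to 1.84), while the share was below that of mock-only peaks (-1.30 points, -2.61 to -0.107). Of the peaks within 1 kb, 43.8% lay downstream of the TSS, against 27.3% of shared peaks (16.5 points, 10.8 to 22.1) and 50.2% of mock-only peaks (-6.38 points, -13.7 to 1.04).

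The median distance to a coding TSS was 26380 bp (23829 to 29312), against 8407.5 bp for shared peaks. Of the Ara-C-only peaks 24.8% were over 100 kb away, against 11.6% of shared peaks. A coding TSS lay inside 206 peaks (7.41%), against 20.8% of shared peaks (-13.3 points, -15.2 to -11.5) and 8.07% of mock-only peaks (-0.657 points, -2.40 to 0.983). Shared peaks were wider (mean 399 bp against 344 bp), and the part of width was not tested. Among promoter peaks alone the share was 49.6%. It was 61.2% of shared promoter peaks (-11.7 points, -17.9 to -5.31) and 40.6% of mock-only ones (8.96 points, 0.666 to 17.0). Of the 206, 35 were within 500 bp of a mock peak and 146 (70.9%) had none within 2000 bp. Over all coding genes, 19.2% had a mock peak in the promoter, so lacking one near a start site is common. Start sites on both strands lay inside 29 peaks (1.04%), against 4.12% of shared peaks (-3.08 points, -4.01 to -2.23) and 27 of the 1500 mock-only peaks (-0.757 points, -1.62 to -0.0378).

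**Figure D2:**
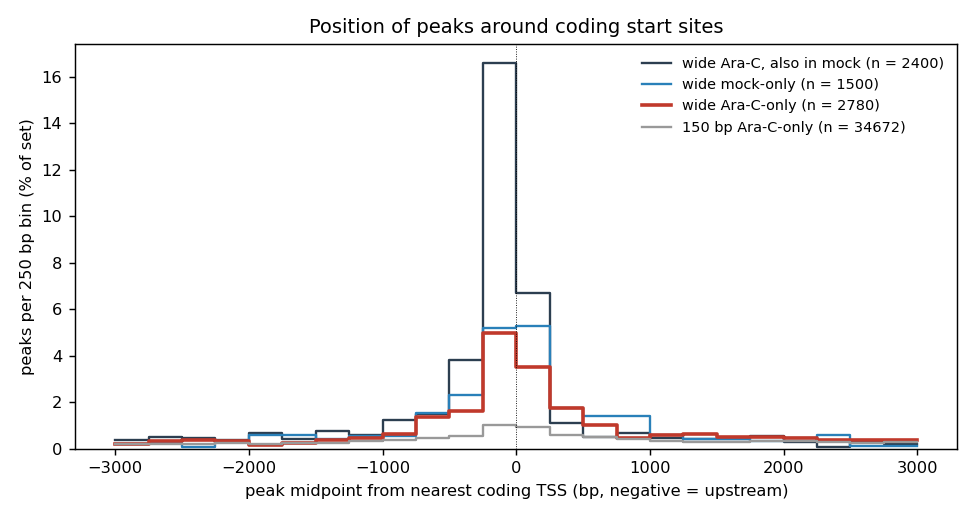
Position of peak midpoints around the nearest coding TSS. The x axis is the distance in bp, with upstream negative, and the y axis is the percent of each set in bins of 250 bp, with a midpoint on the TSS counted in the bin downstream of it. The wide peaks also in mock reach 16.6% in the bin just upstream of the TSS, and the wide Ara-C-only peaks (red) 4.96%.

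GC content was above that of the surrounding sequence. The median was 47.0% (46.3 to 47.4), against 43.0% in windows of the same width 2000 bp away, and 68.2% of peaks were above their own flanks (66.5 to 69.9). Shared peaks had a median of 55.7%, mock-only peaks 48.7% and 150 bp Ara-C-only peaks 43.3%. The peaks ranged from 25.6% to 96.2%, the highest being a 300 bp peak in LINC00486, a noncoding RNA gene, counted over the bases known in the assembly. CpG-rich sequence (GC over 50% and observed over expected CpG above 0.6) was found in 372 peaks (13.4%), 22.5 points below shared peaks (35.8%, interval of the difference -24.7 to -20.1).

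By position, median GC content was 60.0% at promoters, 53.8% in exons, 45.4% in introns and 44.7% between genes. At promoters it was near the 61.3% of shared peaks and equal to the 60.0% of mock-only peaks. There 62.1% of the Ara-C-only peaks were CpG rich, against 74.9% of shared peaks (-12.8 points, -18.8 to -6.86) and 61.6% of mock-only peaks (0.536 points, -7.44 to 8.64). Outside promoters the gap to shared peaks in median GC was wider, 45.4% against 52.6%.

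**Figure D3:**
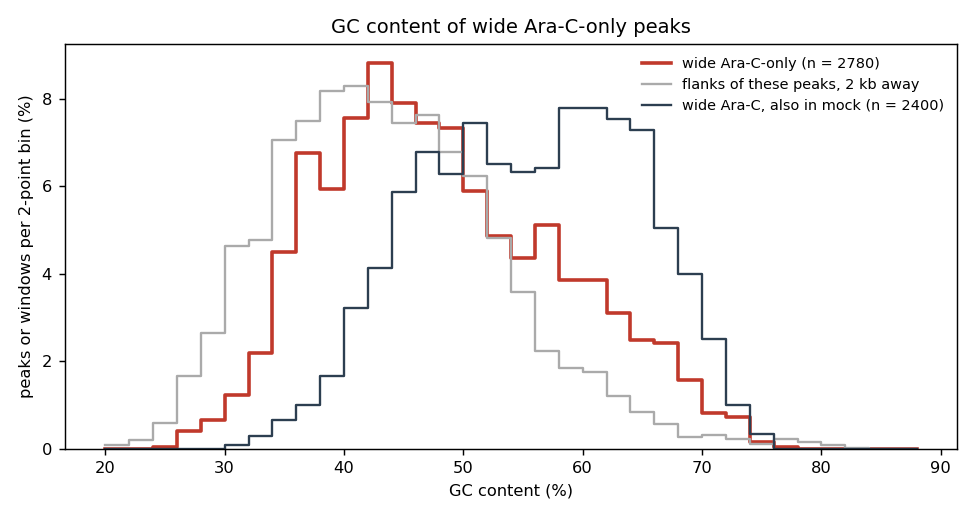
GC content of the wide Ara-C-only peaks (red), of windows of the same width 2 kb from them (grey) and of wide Ara-C peaks also in mock (dark blue). The x axis is GC content in percent and the y axis the percent of peaks or windows per bin. The medians are 47.0%, 43.0% and 55.7%.

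The nearest mock peak was a median of 9250 bp away (8600 to 9950), and the nearest DNR peak 16975 bp. Within 500 bp of a mock peak lay 257 peaks (9.24%), within 1 kb 14.4% and within 10 kb 52.1%. The 150 bp Ara-C-only peaks lay farther away, with a median of 17200 bp and 4.19% within 500 bp (a difference of 5.05 points, 4.01 to 6.20). Wide mock-only peaks lay nearer to Ara-C peaks, with a median of 5200 bp and 13.9% within 500 bp. The Ara-C list holds more peaks than the mock list, and the part of that in this difference was not tested. The mock peaks within 500 bp of an Ara-C-only peak had a median width of 200 bp, and 52 of the 257 (20.2%) were themselves 300 bp or more.

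Nearness to a mock peak varied with position. At promoters 19.9% of the peaks (16.1 to 24.4) were within 500 bp of a mock peak, in exons 13.9%, in introns 7.65% and between genes 6.90% (5.58 to 8.50). The promoter and intergenic intervals did not overlap. Even at promoters, most had no mock peak that near, as most coding genes had none in the promoter (19.2% had one).

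**Figure D4:**
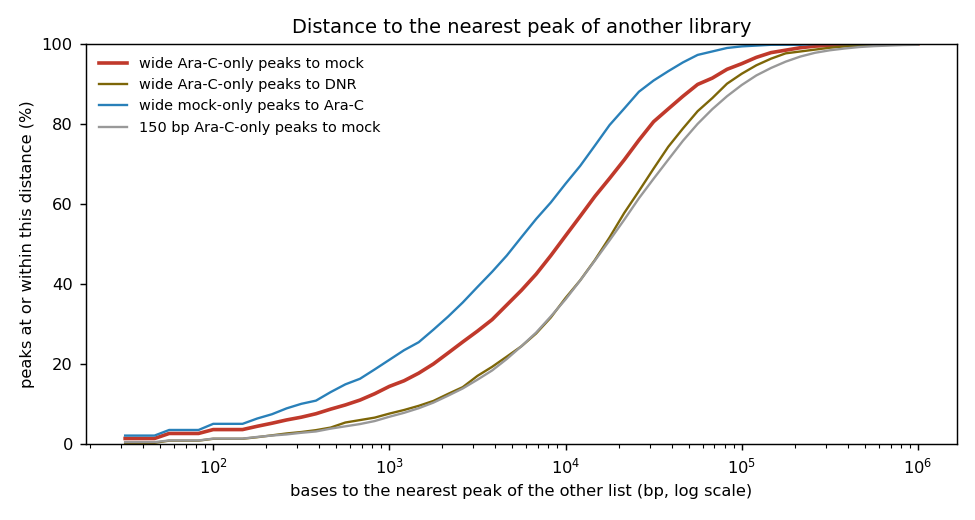
Cumulative distance to the nearest peak of another list. The x axis is the number of bases on a log scale and the y axis the percent of peaks at or within that distance. The wide Ara-C-only peaks (red, to mock) pass 52.1% at 10 kb, between the wide mock-only peaks (to Ara-C) and the 150 bp Ara-C-only peaks.

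The CTCF core consensus was present in 92 peaks (3.31%, 2.71 to 4.04) and in 5 of 5551 flanking windows (0.0901%), a ratio of 36.7. Shared peaks held it in 8.92% (-5.61 points, -6.96 to -4.31) and mock-only peaks in 5.00% (-1.69 points, -3.05 to -0.457). Allowing 1 mismatch, the share was 9.60%, against 0.901% of flanking windows. The 150 bp Ara-C-only peaks, which are shorter, held the exact core in 0.311%.

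The 92 peaks with the core differed from the rest in place. Between genes lay 58.7% of them, against 41.1% of the others (17.5 points, 7.17 to 27.2), and 5 were at promoters. A mock peak lay within 500 bp of 1 of the 92 (1.09%), against 9.52% of the others (-8.44 points, -9.91 to -3.51). The rule had left out every peak sharing a base with a mock peak, and the part of that in this difference was not tested. Their median distance to mock, 9100 bp, was close to the 9250 bp of the rest. The windows printed for ST7 and ETV3 are examples of such intergenic peaks.

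At promoters, the SP/KLF motif GGGCGG, which zinc finger activators of CpG-rich promoters bind, was in 46.2% of the peaks and in 13.7% of their flanking windows. Shared promoter peaks held it in 58.3% (-12.1 points, -18.4 to -5.77). The ETS motif CCGGAAG was in 18.2% of promoter peaks and in 1.14% of their flanks. Shared promoter peaks held it in 22.3%, and the difference of -4.08 points (-8.96 to 1.17) included 0. The NRF1 motif CGCNTGCG was in 9.69% of promoter peaks against 12.7% of shared ones (-3.01 points, -6.76 to 1.19). Against wide mock-only promoter peaks, the intervals for these motifs all included 0. The differences were -2.75 points for SP/KLF (-11.0 to 5.51), 1.64 for ETS (-4.87 to 7.75) and -0.794 for NRF1 (-6.15 to 4.07). The SP/KLF and ETS motifs were more frequent in these promoter peaks than in their flanks, which were matched on width only. Median GC content was 60.0% in the promoter peaks and 46.3% in their flanks. Both motifs are rich in G and C, and the part of base composition in this contrast was not tested.

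The cAMP response element TGACGTCA, bound by CREB and ATF proteins, was in 1 of 351 promoter peaks (0.285%) against 3.21% of shared promoter peaks (-2.92 points, -4.50 to -1.24). Over all wide Ara-C-only peaks it was in 3, or 0.108%, close to the 0.126% of their flanking windows. Wide mock-only peaks held it in 0.533%, and the difference of -0.425 points (-0.946 to -0.0897) lay below 0. Within promoters that difference, -1.46 points (-4.13 to 0.228), included 0.

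Outside promoters, each searched motif whose difference from shared peaks had an interval clear of 0 was less frequent in the Ara-C-only peaks, whichever factor it is named for. SP/KLF was in 9.26% against 23.3% (-14.0 points, -16.4 to -11.7) and the E-box CAGCTG in 19.0% against 25.1% (-6.10 points, -8.70 to -3.52). The motifs of myeloid factors were among them. RUNX (TGTGGTT) was in 8.32% against 14.9% (-6.60 points, -8.66 to -4.60). PU.1 (GAGGAAGT) was in 3.71% against 6.83% (-3.13 points, -4.60 to -1.74). C/EBP (TTGCNNAA) was in 20.4% against 26.9% (-6.54 points, -9.21 to -3.90).

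Against wide mock-only peaks outside promoters, the intervals of these 3 myeloid motifs included 0, at -1.28 points for RUNX (-3.31 to 0.617), 0.873 for PU.1 (-0.390 to 2.01) and -2.12 for C/EBP (-4.96 to 0.634). The motifs were searched on both strands as spelled, and the ETS and PU.1 motifs share letters. Mean width was 399 bp in shared peaks and 344 bp in Ara-C-only peaks, and a longer peak has more room for a short motif, so the part of width in these differences was not tested.

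**Figure D5:**
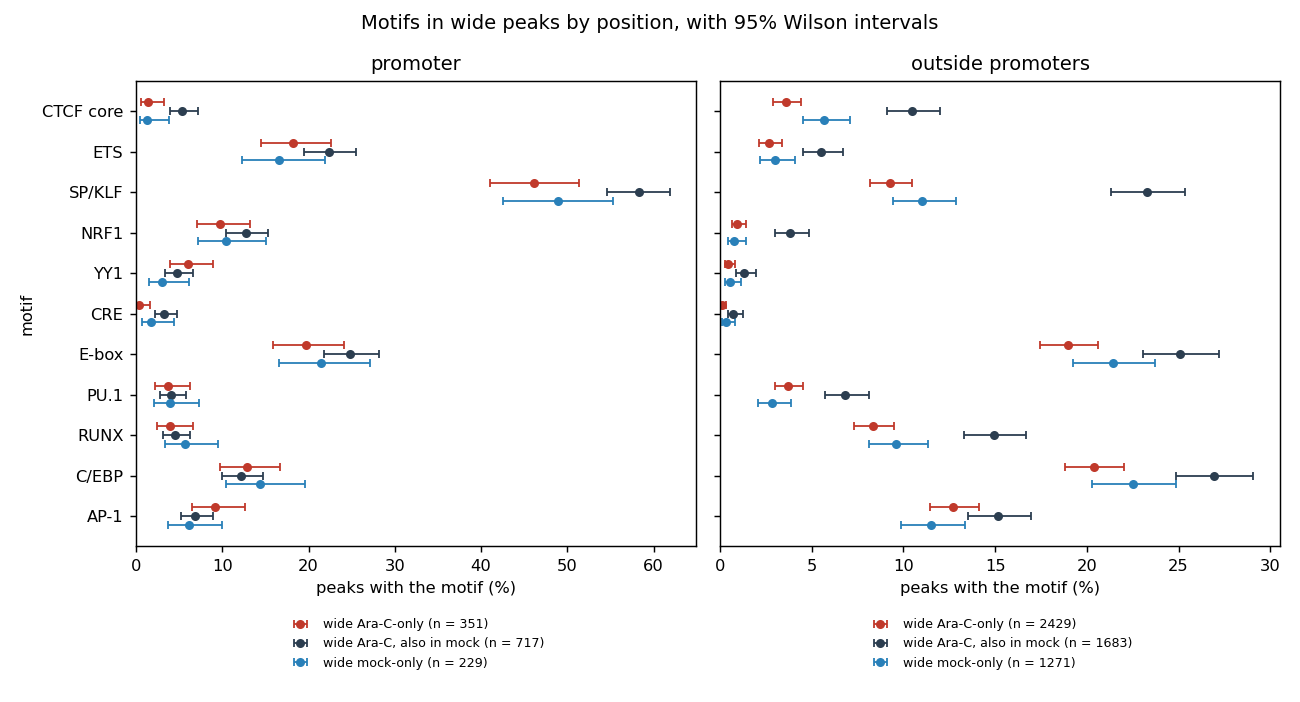
Share of wide peaks that hold each motif, at promoters (left) and outside them (right). The x axis is the percent of peaks, points are shares and bars 95% Wilson intervals, for Ara-C-only (red), also in mock (dark blue) and mock-only (blue) peaks. Outside promoters the red points lie near the blue ones and below the dark blue ones for SP/KLF, RUNX and PU.1.

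At the gene level, 385 of 19811 coding genes (1.94%) had a wide Ara-C-only peak at the promoter. Of these, 101 (26.2%, 22.1 to 30.8) also had a mock peak somewhere in the promoter, against 19.2% of all coding genes. A DNR peak lay there in 30 (7.79%, 5.51 to 10.9), against 5.73% of all coding genes. There was neither in 261 (67.8%), and the same share over all coding genes was not counted. As the mock and DNR shares were not below those of all coding genes, the 261 do not mark these promoters as freer of such peaks. Counting gene bodies as well, 1572 genes (7.93%) had such a peak. The lists described next had 0 to 2 promoter genes each, and lists of 16 to 30 genes are too short to read a share against those backgrounds.

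Among genes of the SUMO pathway, PIAS2, a SUMO E3 ligase, had 2 peaks, of 300 and 350 bp, lying 20300 and 8750 bp from mock peaks. SENP5, a SUMO protease, had 1 of 300 bp in an intron, 40650 bp from mock. Of 18 CTCF and cohesin genes, SMC3 and PDS5A, a cohesin regulator, had a promoter peak and ESCO1, a cohesin acetyltransferase, one in an intron. CTCF itself had none.

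Of 26 replication stress genes, BRCA2, needed for homologous recombination, had a 350 bp promoter peak 500 bp from a mock peak and a second of 300 bp in an intron. CLSPN, the Claspin gene, had 1 of 300 bp, 429 bp downstream of its start. A 300 bp peak counted for RAD9A, of the checkpoint clamp, lay within its annotated span but at -73807 bp from its nearest start among basic coding transcripts. Of 20 genes of Ara-C and nucleotide metabolism, RRM2, a ribonucleotide reductase subunit, had a 350 bp peak 9 bp from its start, 11900 bp from mock. SLC29A2, a nucleoside transporter, had a 300 bp peak with the CTCF core. Of 25 DNA damage and p53 target genes, CDKN1A, the cell cycle inhibitor p21, had 1 peak, of 400 bp and 402 bp downstream of a start.

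Of 25 myeloid transcription factor genes, CEBPB had a 300 bp promoter peak, 3700 bp from mock, that held the CTCF core. ETV6 had 2 peaks and FLI1 and IKZF1 1 each, all in introns. The 2 peaks counted for RUNX1 lay within its annotated span, at -2109 and -426659 bp from its nearest start among basic coding transcripts. Of 24 immediate-early genes, JUN had 2 peaks, of 350 and 300 bp, lying 2944 and 2119 bp downstream of its start and 850 and 50 bp from mock peaks. IER2 had its 650 bp peak 2536 bp downstream, 250 bp from a 450 bp mock peak. At these short genes the peaks lay in exons toward the 3′ end, beside mock peaks. Of 30 NF-kB and inflammatory genes, NFKB2 had 1 peak in the body, and of 16 azurophil granule genes SRGN, a proteoglycan core protein, had 1.

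Small noncoding RNA genes lay under 14 of the 2780 peaks. The same count was not made for shared, mock-only or all Ara-C peaks. Whether 14 is more than another set of peaks would hold was therefore not tested, and the count is a description. The genes were named after their values were seen. Among them were the spliceosomal RNA genes RNU1-1 (550 bp) and RNU5D-1 (450 bp), the Y RNA gene RNY5 (400 bp), and the small nucleolar RNA genes SNORD43 (500 bp) and SNORA3 (450 bp). Many small RNA genes have near-identical copies elsewhere, so positions can be uncertain although the authors kept uniquely placed reads. Whether this holds for each gene named was not tested.

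Along the chromosomes, 627 peaks (22.6%) lay within 50 kb of another, in 285 groups, and 2153 stood alone. The largest group, of 8 peaks, spanned chr10:42365001-42408450 with no coding gene, 10065 bp from an assembly gap of 1 Mb or more. It also held 19 mock and 30 DNR peaks, so that place was not free of SUMO peaks in the other lists. There were 4 groups of 4 peaks. The one at chr1:117034351-117047400 held 0 mock and 0 DNR peaks. Another, at chr17:37886551-37949800, ran over ERBB2, a receptor tyrosine kinase, MIEN1, GRB7 and IKZF3, a lymphoid transcription factor, with 2 mock and 3 DNR peaks. The groups at chr18:52315301-52367100 and chr21:10706301-10721900 held no coding gene, with 2 mock and 2 DNR peaks in the former and 4 of each in the latter. Within 1 Mb of such an assembly gap lay 64 peaks (2.30%), against 1.08% of shared peaks (1.22 points, 0.516 to 1.93).

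Over the 21 autosomes other than 8, density had a median of 0.997 peaks per Mb and ran from 0.522 to 3.29. Chromosomes 8 and X were set apart, at 0.0687 and 0.0938 peaks per Mb. Their Ara-C lists were also sparse at any width, with 5.25 and 4.74 peaks per Mb, and whether the lists used here are complete for chromosome 8 is not known. As a share of the Ara-C peaks of each of the 21 autosomes, the range was 2.94% to 5.65%. On chromosomes 8 and X the share was lower as well, at 1.31% and 1.98%.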

How the data were processed

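SUMO-2/3 ChIP-seq of HL-60 cells gave 6 samples, 3 immunoprecipitations and 3 inputs, of which the inputs were not used here. The deposited files were peak lists of chromosome, start and end, with no height, p-value or read number, so library depth is not known here. Per the file names and the study's methods, the authors aligned reads to hg19 (CASAVA 1.8.2), kept unique reads, removed pile-ups (threshold 5 in mock, 4 in treated cells), extended reads (210 bp, DNR 220 bp), binned at 50 bp, scaled, subtracted input and called runs whose signal passed 32, joining gaps up to 100 bp. One fixed threshold means that depth, scaling or noise in 1 library moves which runs are called and how wide they are, and this cannot be told apart from the drug.

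Peaks were placed by midpoint on GENCODE 44 lifted to GRCh37, as promoter, exon, intron or intergenic, in that order. GC content and motifs were read from GRCh37, with windows 2000 bp away as background. Shares carry Wilson intervals and differences Newcombe intervals. No test between conditions was made, since each has 1 library. Overlaps were checked against bedtools 2.31.1, with 0 differences, and the steps were tested on simulated data. Python 3.11.15, numpy 2.4.6 and scipy 1.17.1 were used.

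The rule and gene lists were chosen with earlier results of these data known. Genes named are those at or nearest to the 10 widest peaks, ties at 650 bp included, those of the 10 widest peaks over a coding TSS, list genes with a peak, and genes of the 3 largest groups, ties included. Some genes of the SUMO pathway list, and that list's counts, are not reported here. Sequences printed are windows of at most 200 bases from peaks that touch no UTR, the 4 widest with the CTCF core and the 3 widest with another motif. Alternatives covered width, overlap, excluded regions, promoter definition, gene set, flank distance, motif mismatch and joining distance. Counts of loci, small RNAs, comparisons within promoters, start sites on both strands and assembly gaps were added after the data were seen.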

Additional observations from a re-analysis of the deposited data

How the results depend on the processing

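No paired analysis was possible because the 3 replicates of a condition were pooled into 1 library. Across 11 alternative settings and 17 results, 45 of 88 values stayed within the interval of the reported value or, for numbers of peaks and genes, within 1.5 times it, 43 moved further and 0 changed direction. The interval is the counting error alone. Numbers of peaks inside the 1.5 times limit, but outside the Poisson interval, were 2438 with no mock or DNR peak within 500 bp, 2939 with no region excluded and 2900 when absent from mock only. The cause of each shift was not tested beyond the setting's own construction.

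A width of at least 400 bp left 597 peaks, with 17.3% at promoters, 7.37% in exons and 35.0% in introns, 21.6% within 1 kb of a TSS, a median of 17928 bp to a TSS, GC content of 48.5%, and 7400 bp to a mock peak with 12.1% within 500 bp. The promoter differences became -14.9 points from shared peaks, -0.239 from mock-only and 13.0 from 150 bp peaks. A width of at least 250 bp gave 6937 peaks and 758 promoter genes, with 10.1% at promoters (5.93 points above 150 bp peaks), 12.3% within 1 kb of a TSS, medians of 31793 bp to a TSS, 46.0% GC, 3.60 points above flanks and 10350 bp to mock, and 2.61% with the CTCF core. Requiring no mock or DNR peak within 500 bp gave 11.3% at promoters, 13.7% within 1 kb of a TSS and 11200 bp to mock. With no region excluded, the median to mock was 8550 bp and 10.9% lay within 500 bp.

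Any overlap with a promoter gave 14.1% promoter, 8.67% exon and 35.8% intron. A promoter of 1 kb either side gave 15.4%, 4.17% and 37.9%, 10.5 points above 150 bp peaks. With all annotated genes the shares were 18.1% promoter, 7.09% exon, 46.7% intron and 28.2% intergenic, 10.2 points above 150 bp peaks, with 20.5% within 1 kb of a TSS and a median of 9990.5 bp. The CTCF core with 1 mismatch was in 9.60%, and joining within 10 kb put 7.55% in groups. With no read numbers in the lists, depth cannot be weighed for any peak.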

Other observations

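The regions left out of the rule also held wide peaks of 1 list. The part of chromosome 8q held 98 wide Ara-C-only peaks (exact Poisson interval 79.6 to 119), 86 wide mock-only peaks and 107 wide DNR-only peaks. The first and last 1 Mb of the chromosomes held 61 (46.7 to 78.4), 39 and 85. On chromosome 8q the DNR-only count lay within the counting interval of the Ara-C-only count, and at the chromosome ends it lay above it. Outside the left-out regions the DNR-only and Ara-C-only peaks numbered 1017 and 2780.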
